A study of Mus musculus with 4 samples.

Results

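Hox genes of the A, B, C and D clusters were followed in osteoblasts, cells that build bone, grown in culture from the mouse. Members were all genes with 1 annotated symbol made of Hox, a cluster letter and a number, and 33 of the 18193 genes on the arrays met this rule. They were 9 genes of the A cluster, 9 of B, 7 of C and 8 of D. The RefSeq table names 39 Hox genes, and the other 6 were not analysed here.

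The series holds 4 Affymetrix arrays with 1 array in each group. The control array is labelled 0 h, and the others come from cells given 10 nM insulin for 6, 12 or 24 h. No array came from cells kept without insulin for these times, so insulin and time after 0 h cannot be told apart. All cultures had been serum-starved and, by the growth protocol, lacked the IGF-1 receptor, although the genotype label reads IGF-1 null for every array. Neither the bone and the animals from which the cells came nor the way the receptor was removed is given in these sources. With 1 array per group there are no replicates, so differences carry no p-value and no error, and their precision is limited by the number of arrays. In bulk RNA, fewer cells of a type and less RNA per cell cannot be told apart.

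Hox genes encode homeodomain transcription factors that give cells along the body axis and the limbs their positional identity. Within each cluster the genes lie in the order of their paralogue numbers, and low numbers are active toward the head while high numbers are active toward the tail and the ends of the limbs. Cells of the skeleton keep much of this positional code in culture, and bones of the face and front of the skull, which come from neural crest, form from cells with little Hox expression.

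The 0 h array stood apart from the insulin arrays beyond the Hox genes. Eif2s3y, a Y-linked gene, had intensities of 12.2, 295, 305 and 326 at 0, 6, 12 and 24 h, and Xist, transcribed from the inactive X, was at 109, 1636, 1278 and 1463. Median log2 differences of single chromosomes, insulin minus 0 h, ran from -0.25 to 0.34. On the chromosomes that carry the Hox clusters the medians were -0.07 for chromosome 6 (A), -0.01 for chromosome 11 (B), -0.19 for chromosome 15 (C) and -0.02 for chromosome 2 (D). Of the osteoblast markers 5 of 8 were measured, and 3 of them reached the median brightness at 0 h and 5 on each insulin array. Their summed intensity was 14317 at 0 h and 30720 to 38785 on the insulin arrays. Most of that sum was Col1a1 (13802 at 0 h), and 3 of the 5 were at least 2-fold higher at all times. Macrophage markers went from a sum of 512 to between 4745 and 6703, with 5 of 5 at least 2-fold higher at all times. The same held for 6.78% of all genes and for 10.0% of genes at or above the median brightness. Chondrocyte markers went from 825 to between 4280 and 6695 with 3 of 4 higher, and adipocyte markers from 910 to between 2497 and 5170 with 2 of 3 higher. The other adipocyte marker, Pparg, was highest at 0 h, with 223, 107, 184 and 196 at 0, 6, 12 and 24 h. Skeletal muscle markers went from 329 to between 1791 and 1957 with 1 of 4 higher. That 1 was Acta1, skeletal muscle actin (130.2 at 0 h, 1626 to 1802 with insulin), while Myod1, Myog and Des were below their 0 h intensity on every insulin array. Haematopoietic progenitor markers went from 274 to between 966 and 1045 with 1 of 4 higher, neuronal and neural crest markers from 152 to between 289 and 336 with 1 of 3 higher, and the higher genes were Cd34 and Tubb3. Endothelial markers (193 at 0 h, 192 to 225 with insulin) and epithelial markers (479 at 0 h, 389 to 431 with insulin) had none that far apart. No intensity was 0, since RMA values have no true zero. The part of sex, chromosome and cell type differences in the Hox values was not tested. Every difference from 0 h below rests on that 1 array, and without it, between insulin arrays, no Hox gene was 2-fold apart.

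Upstream sequences are shown for Hoxd9, Hoxd8, Hoxa7 and Hoxa5, the members with the largest differences that have an entry in the RefSeq promoter table. Each window holds the 250 bases before the annotated start, from build GRCm38.p6, written 5′ to 3′ on the strand of the gene. Capitals mark matches to 5 motifs, on either strand and with overlaps allowed. TAATTA is a homeodomain core and TGATNNAT a composite site of Pbx and Hox proteins. TATAAA is the TATA box, CCAAT is bound by the factor NF-Y, and GGGCGG is the GC box.
Hoxd9, chr2:74697513-74697762, plus strand: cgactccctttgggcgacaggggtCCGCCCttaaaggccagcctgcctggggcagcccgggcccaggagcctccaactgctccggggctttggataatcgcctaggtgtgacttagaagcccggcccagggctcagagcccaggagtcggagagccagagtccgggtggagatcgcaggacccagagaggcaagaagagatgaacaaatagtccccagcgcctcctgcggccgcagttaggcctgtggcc
Hoxd8, chr2:74704365-74704614, plus strand: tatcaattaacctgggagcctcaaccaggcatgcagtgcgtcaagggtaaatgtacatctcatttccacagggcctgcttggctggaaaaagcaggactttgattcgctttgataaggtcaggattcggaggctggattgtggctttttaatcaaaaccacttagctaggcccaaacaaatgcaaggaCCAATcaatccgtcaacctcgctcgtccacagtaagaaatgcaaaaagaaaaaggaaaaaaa
Hoxa7, chr6:52218574-52218823, minus strand: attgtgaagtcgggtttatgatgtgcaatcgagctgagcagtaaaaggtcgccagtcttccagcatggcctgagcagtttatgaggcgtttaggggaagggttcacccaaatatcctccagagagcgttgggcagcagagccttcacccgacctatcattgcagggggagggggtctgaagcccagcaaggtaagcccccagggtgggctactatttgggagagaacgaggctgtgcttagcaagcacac
Hoxa5, chr6:52204588-52204837, minus strand: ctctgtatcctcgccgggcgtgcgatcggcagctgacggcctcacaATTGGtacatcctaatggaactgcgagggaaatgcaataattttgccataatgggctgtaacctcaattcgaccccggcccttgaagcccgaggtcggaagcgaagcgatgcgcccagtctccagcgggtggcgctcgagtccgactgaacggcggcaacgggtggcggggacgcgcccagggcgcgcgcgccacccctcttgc

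The Hoxd9 window held 1 GC box at base 25 and the Hoxd8 window 1 CCAAT at base 189. The Hoxa5 window held 1 CCAAT on the opposite strand at base 47, and none of these letters occurred in the Hoxa7 window. Among 32851 windows of the same length in the table, GGGCGG occurred in 32.7%, CCAAT in 33.8%, TATAAA in 12.4%, TGATNNAT in 7.68% and TAATTA in 4.84%. The table gave 24 windows for 22 Hox genes, 19 of them measured here. Of these windows 14 held CCAAT, 10 held GGGCGG, 4 TATAAA, 4 TGATNNAT and 2 TAATTA. CpG dinucleotides numbered 13 upstream of Hoxd9, 6 upstream of Hoxd8, 7 upstream of Hoxa7 and 28 upstream of Hoxa5. The median was 12.5 over the Hox windows and 6 over all windows, so 3 of the 4 windows shown lay above the latter and Hoxd8 on it. Matches describe letters in these windows and are not binding sites.

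Which Hox genes gave signal was read first, as a positional code of the cultures. A gene was marked as bright where the mean of its brightest probe set over the 4 arrays reached 67.8, the median of 45037 probe sets after controls were set aside. Of 33 Hox genes 12 were bright, or 36.4%, against 64.1% of all genes. Probe sets differ in affinity, so the mark does not rank transcript amounts between genes. The mean takes in every array, so a gene can pass the mark through the same values that are later compared. The bright members were Hoxa2, Hoxa3, Hoxa5, Hoxa7, Hoxa9, Hoxb2, Hoxb3, Hoxb4, Hoxc6, Hoxc9, Hoxd8 and Hoxd9. By paralogue number, 5 of 10 members numbered 1 to 4 were bright, 4 of 9 numbered 5 to 8, 3 of 4 numbered 9, and 0 of 10 numbered 10 to 13.

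The posterior members, those that pattern the tail end and the distal limb, had intensities between 10.9 and 80.5. For comparison, probe sets of 80 olfactory and vomeronasal receptor genes, which are active in sensory neurons, had a 95th percentile of 55.2 for their means. Of all genes 67.6% reached this level, and 13 of the 33 Hox genes did. Of the 21 Hox genes below the brightness mark 20 lay below this level too. The other was Hoxc13, known for its role in hair and nail, with 80.5, 47.3, 59.0 and 56.7 at 0, 6, 12 and 24 h. Hoxc13, with a mean of 60.9, was also the member just below the mark, and Hoxc6, with a mean of 81.1, the one just above it. Members below the mark differed from 0 h by -0.64 (Hoxa4) to 0.46 (Hoxb5) log2 in the mean of the insulin arrays, and 0 of 21 reached 2-fold at any time.

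**Figure D1:**
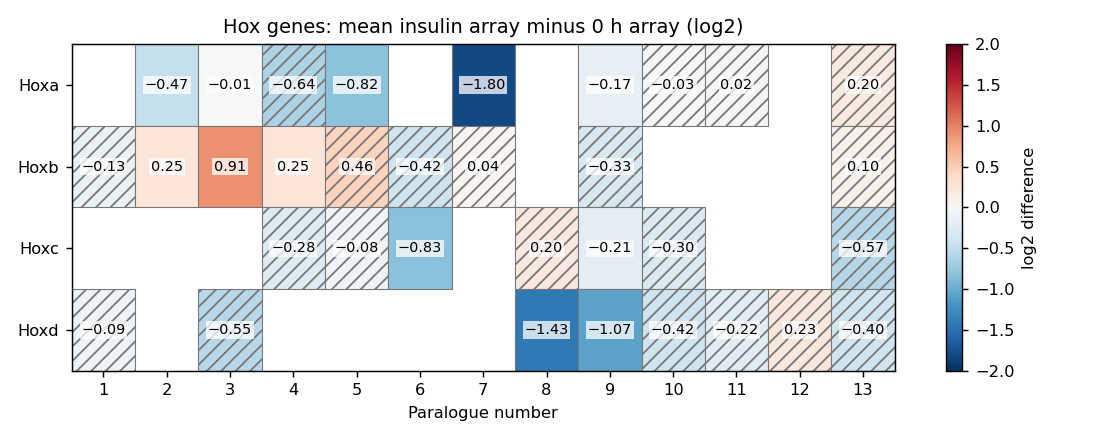
Log2 intensity of the mean insulin array minus the 0 h array for 33 Hox genes, by cluster (rows) and paralogue number (columns). Hatched cells are below the median brightness and blank cells were not analysed or do not exist in the mouse. Hoxa7 (-1.80), Hoxd8 (-1.43) and Hoxd9 (-1.07) are the darkest blue cells and Hoxb3 (0.91) the darkest red one.

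The comparison of the insulin arrays with the 0 h array asks how the positional code differed between them, with insulin and time together. By their brightest probe sets, bright central members of the A, C and D clusters were lower on the insulin arrays, and the bright members of the B cluster were higher. At least 2-fold lower were 3, 2 and 3 of 33 Hox genes at 6, 12 and 24 h, against 3.52%, 3.98% and 3.66% of all genes. At least 2-fold higher were 0, 1 and 0, against 7.33%, 8.29% and 7.89%. At all 3 times 2 Hox genes were lower, or 6.06% against 2.91% of all genes, and 0 were higher, against 6.78%. Among the 12 bright members the same 2 were lower, or 16.7% against 4.00% of bright genes. Bright genes at least 2-fold lower made up 4.83%, 5.52% and 5.02% at 6, 12 and 24 h, and the Hox genes counted at the single times were all bright. The counts are small, and 1 gene more or fewer would move these shares by several percentage points. The median log2 difference was -0.34, -0.42 and -0.31 over the bright members at 6, 12 and 24 h, beside 0.01, 0.03 and 0.00 over all bright genes.

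Direction at any size was counted as well. The 0 h array lay above all 3 insulin arrays for 21 of 33 members, or 63.6%, against 43.6% of all genes. It lay below them for 6 members, against 36.3% of all genes, and inside their range for the other 6. Among bright members it lay above for 8 of 12 (42.5% of bright genes) and below for 3 (44.8%). Hoxa3 was the bright member inside the range. Most of the 33 members were below the brightness mark, where a direction of any size may be background. The olfactory and vomeronasal probe sets had a 95th percentile of 65.2 at 0 h and 52.5 to 52.8 on the insulin arrays. Their medians were 17.5 at 0 h and 16.2 to 17.4 on the insulin arrays.

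Hoxa7, a central gene of the A cluster that patterns the trunk vertebrae, had intensities of 430, 129, 120.2 and 122 at 0, 6, 12 and 24 h by its only probe set. The 0 h value stood alone and the insulin arrays lay close together. This is 3.33, 3.58 and 3.54-fold lower at the 3 times, a mean log2 difference of -1.80. Among bright genes that mean ranked at percentile 1.22. Hoxa5, another central gene, known for its role in lung and thoracic skeleton, had 418, 247, 228 and 233. It was 1.69, 1.83 and 1.79-fold lower by this probe set, while a second bright probe set had 132, 122, 149.7 and 127 and did not separate the 0 h array. The lower level of Hoxa5 thus rests on 1 of its 2 probe sets, and the mean difference of the other was 0.00.

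The remaining A cluster members were closer to 0 h. Hoxa2, which patterns the second pharyngeal arch, had 141, 99.5, 93.8 and 113, so it was 1.42, 1.51 and 1.25-fold lower. Hoxa3, which acts in the pharyngeal arches and their glands, had 101.5, 100.5, 102.3 and 100.8 and was level by its brightest probe set. Its other probe sets, below the mark, were all highest at 0 h. With all probe sets averaged its mean difference was -0.20. Hoxa9, the A cluster gene of paralogue number 9, had 139, 124, 134.6 and 113, with the 12 h array near the 0 h array. Hoxa4, Hoxa10, Hoxa11 and Hoxa13 were below the brightness mark.

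Hoxd8, the central D cluster gene, had 1084, 409, 431 and 365 at 0, 6, 12 and 24 h. The 0 h array was above every insulin array, and the gene was 2.65, 2.51 and 2.97-fold lower. Its second bright probe set gave 563, 240, 248 and 210, with the same direction. Hoxd9, next in number, had 427, 205, 230 and 177, which is 2.08, 1.86 and 2.41-fold lower. It missed 2-fold at 12 h and so is not counted at all 3 times. The other D cluster members, Hoxd1, Hoxd3 and Hoxd10 to Hoxd13, were below the mark. Their mean differences ran from -0.55 for Hoxd3 to 0.23 for Hoxd12.

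In the C cluster Hoxc6, a gene of the thoracic region, had 120.5, 77.2, 64.7 and 61.9. It was 1.56, 1.86 and 1.95-fold lower and its 6 h array lay highest among the insulin arrays. A second bright Hoxc6 probe set had 99.8, 74.1, 76.0 and 71.3, again highest at 0 h, and another one, below the mark, had 55.4, 62.6, 55.2 and 56.1. Hoxc9 had 175, 157, 147 and 151, which is 1.11, 1.19 and 1.16-fold lower.

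The B cluster genes with signal lay the other way. Hoxb3, which acts in the hindbrain and neck region, had 126, 219, 263 and 232 at 0, 6, 12 and 24 h. It was 1.74, 2.09 and 1.85-fold higher, and its second bright probe set had 117, 173, 163 and 162, also lowest at 0 h. Hoxb2, another hindbrain gene, had 292, 357, 376 and 316, or 1.22, 1.29 and 1.08-fold higher. Hoxb4, known for its role in neck vertebrae and blood stem cells, had 146, 181, 179 and 162, or 1.24, 1.22 and 1.11-fold higher. By the brightest probe sets the 0 h array was the lowest for all 3 genes, with a narrow gap at 24 h for Hoxb2 and Hoxb4. A second Hoxb4 probe set, below the mark, had 58.13, 65.05, 58.08 and 60.96 and did not separate the 0 h array. Median differences over bright members were 0.25 for B, -0.47 for A, -0.52 for C and -1.25 for D.

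**Figure D2:**
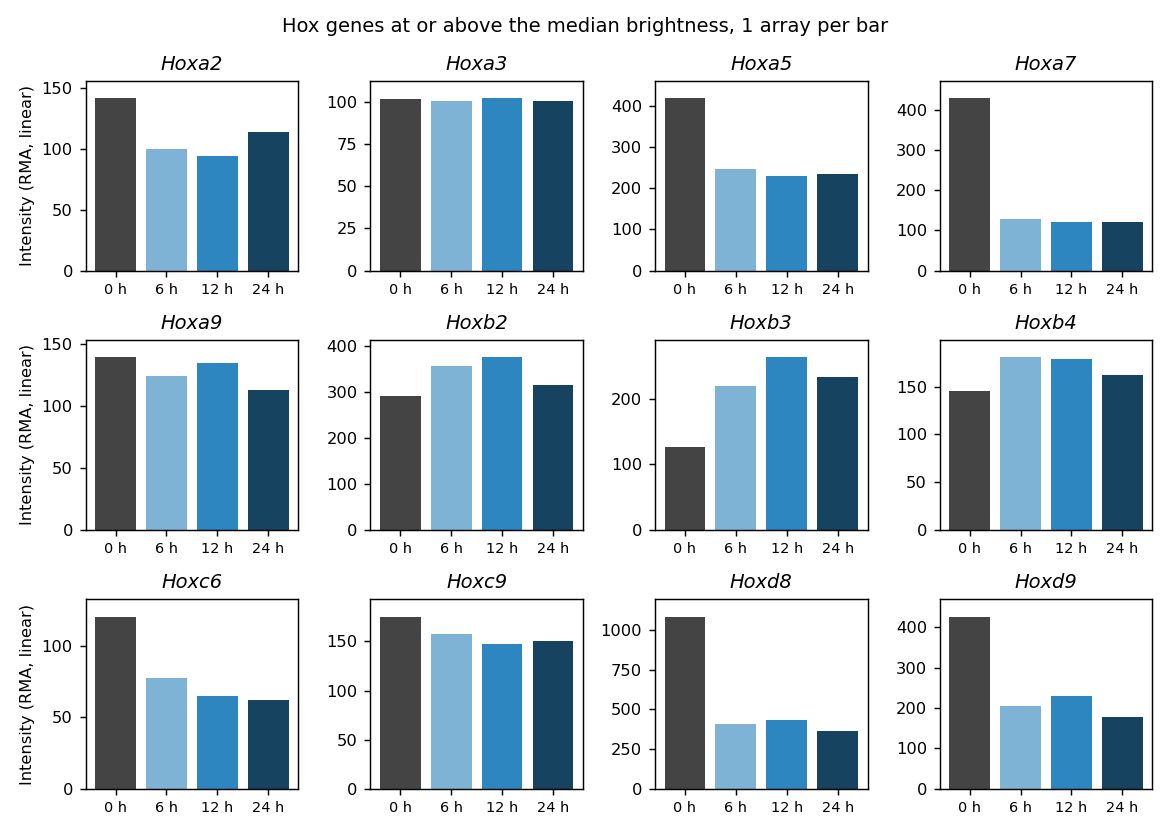
Linear RMA intensity of the 12 bright Hox genes on the 4 arrays, 1 bar per array and 1 panel per gene, each axis starting at 0 with its own scale. The 0 h bar is the tallest for 8 genes, including Hoxd8 at 1084, and the shortest for Hoxb2, Hoxb3 and Hoxb4.

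By paralogue number, all 4 bright members numbered 5 to 8 (Hoxa5, Hoxa7, Hoxc6 and Hoxd8) were lower in the mean of the insulin arrays, from -0.82 to -1.80 log2 by their brightest probe sets. Hoxc6 was below the brightness mark at 12 and 24 h, so its 0 h value helped it to count as bright. With all probe sets of a gene averaged, Hoxa5 was at -0.41 and Hoxc6 at -0.40. The bright members numbered 9 ranged from -0.17 for Hoxa9 and -0.21 for Hoxc9 to -1.07 for Hoxd9. Those numbered 1 to 4 ranged from -0.47 for Hoxa2 to 0.91 for Hoxb3, with a median of 0.25. Probe sets annotated to both Hoxd3 and Hoxd4 are not counted here, and these were above the mark and highest at 0 h. The bright B cluster genes all carry numbers 2 to 4, so cluster and paralogue number cannot be told apart for them. Hoxa2 and Hoxa3, the A cluster genes of the same numbers, were not higher.

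Between insulin arrays the Hox genes moved little. Bright members changed by -0.26 (Hoxc6) to 0.26 (Hoxb3) log2 from 6 to 12 h, by -0.37 (Hoxd9) to 0.27 (Hoxa2) from 12 to 24 h, and by -0.32 to 0.19 from 6 to 24 h. Among all genes 0.0440%, 0.0110% and 0.302% were 2-fold apart in these comparisons.

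Genome order showed which neighbours shared the differences. In the D cluster the measured genes in a row from Hoxd9 through Gm38462 and Hoxd8 to Hoxd3os1 were all lower on the insulin arrays. Hoxd3os1, a noncoding RNA gene of the cluster, had 617, 99.5, 116 and 96.5 at 0, 6, 12 and 24 h. Its 0 h intensity was far above the others, which makes it 6.20, 5.32 and 6.39-fold lower. A second Hoxd3os1 probe set, below the mark, gave 31.4, 17.7, 16.8 and 19.4. Gm38462, a predicted gene chosen for mention after its values were seen, had 127, 26.0, 32.1 and 25.4 and a mean below the mark. It was 4.89, 3.96 and 5.01-fold lower. Hoxd10 on one side and Hoxd3 on the other were below the mark by the probe sets that carry their symbol alone, with mean differences of -0.42 and -0.55. Beside these, 2 probe sets annotated to both Hoxd3 and Hoxd4 had means above the mark, and their signal cannot be assigned to 1 gene. They had 123, 89.3, 96.4 and 74.6 and 145.6, 74.4, 72.9 and 66.8 at 0, 6, 12 and 24 h, both highest at 0 h. In the B cluster the noncoding Hoxb5os had 133, 95.3, 82.3 and 83.2, lower while the bright coding genes of that cluster were higher. Hoxa11os was below the mark, with a mean difference of -0.15. Gm15050 in the A cluster, also named after its values were seen, had 259, 280, 292 and 276. The homeobox genes Evx1 and Evx2 at the ends of the A and D clusters were below the mark, at 34.1 to 40.3 and 42.7 to 47.4. Whether probes read the strand of the coding gene or of its antisense partner was not examined, so signals of overlapping genes are uncertain.

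Genes outside the clusters went in both directions beside every cluster. The 5 nearest measured genes on each side gave 40 flanking genes, 31 of them bright. At all 3 times 2 of these were at least 2-fold higher (10.0% of bright genes) and 1 was lower (4.00%). The higher genes were Chn1, a Rac GTPase-activating protein gene beside the D cluster (29.5, 144, 159.9 and 161), and Jazf1, a zinc finger gene beside the A cluster (47.3, 148, 204 and 163). Both were below the mark at 0 h and counted as bright through the insulin arrays. The lower one was Hnrnpa1, an RNA-binding protein gene beside the C cluster (2653, 1105, 997 and 1190). Median differences of the bright flanking genes were -0.22 for A, 0.17 for B, -0.40 for C and -0.39 for D. For each cluster this median had the same sign as that of its bright Hox members. Those members number 5 for A, 3 for B, 2 for C and 2 for D, and a link between the signs was not tested. Lnpk and Mtx2, which border the D cluster with Evx2, had mean differences of -0.96 and -0.70. All 5 were named after their values were seen.

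**Figure D3:**
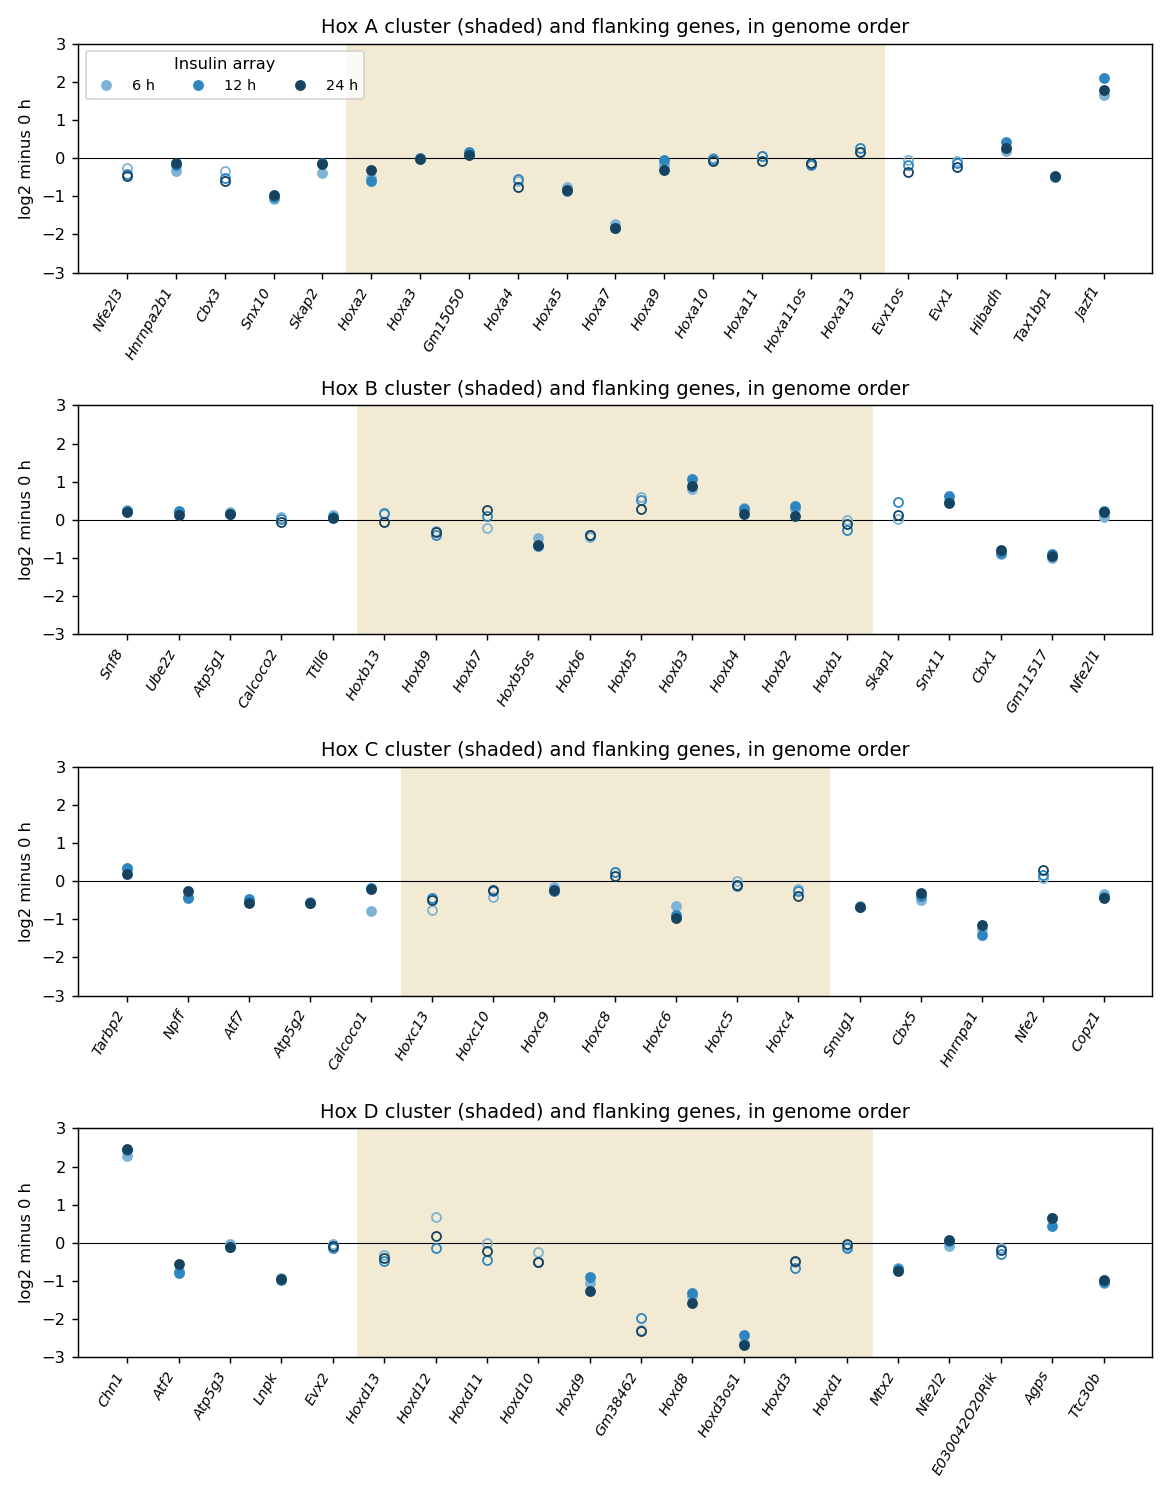
Log2 intensity of each insulin array minus the 0 h array for the genes of the Hox clusters (shaded) and the 5 nearest measured genes on each side, in genome order without distances. Filled points are bright genes and open points lie below the brightness mark. The run from Hoxd9 to Hoxd3os1 lies at -0.89 or lower on every insulin array, with Hoxd3os1 lowest at a mean of -2.57.

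Hox proteins bind DNA together with cofactors of the TALE homeodomain class, the Pbx, Meis and Pknox proteins. Of 9 listed genes 8 were measured and 7 were bright, and 0 of these were 2-fold apart at all 3 times. Their median difference was -0.18, beside 0.01 over all bright genes. Meis2, named after its values were seen, had 1617, 698, 815 and 809, just short of 2-fold lower at 12 h. Pbx3, also named afterwards, had 547, 903, 865 and 952, or 1.65, 1.58 and 1.74-fold higher. Meis1 had 385, 333, 339 and 335.

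Polycomb complexes keep Hox genes silent outside their domains, and trithorax or MLL complexes keep them active. Of 11 bright genes of Polycomb complex PRC2, 2 were lower at all 3 times. Ezh2, the histone methyltransferase, had 763, 333, 255 and 269.5, and Mtf2, an accessory subunit, had 1631, 650, 595 and 620. Suz12 and Eed, the other core subunits, had 579, 380, 335 and 399 and 983, 1184, 1086 and 1061. Of 15 bright genes of the PRC1 class 2 were lower, namely Pcgf5 (1500, 336, 338 and 310) and Pcgf6 (628, 267, 257 and 251), both encoding Polycomb ring finger proteins. Their list medians were -0.17 and -0.12. Of 12 bright MLL and trithorax genes and 2 histone demethylase genes that remove the PRC2 mark, 0 were 2-fold apart at all times, with medians of -0.10 and -0.16. Kmt2a, which encodes MLL1, had 357, 353, 357 and 370. Others of the MLL and trithorax list lay further from 0 h, and 2 are named after their values were seen. Psip1 had 585, 275, 262 and 301, just short of 2-fold lower at 24 h. Kmt2b had 248, 364, 397 and 376, the largest mean difference in the other direction. The background for 2-fold lower at all 3 times is the 4.00% given above.

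Retinoic acid sets the anterior borders of many Hox genes in the embryo. Of 15 measured genes of retinoid signalling 9 were bright, 4 were at least 2-fold higher at all 3 times (10.0% of bright genes) and 0 lower (4.00%), with a median of 0.69. Of the 15, 6 reached the mark at 0 h and 9 on each insulin array. Crabp1, Crabp2 and Aldh1a1 thus counted as bright through the insulin arrays, which bears on this count and median. Without the mark, the same 4 of 15 were higher, beside 6.78% of all genes. Crabp1 and Crabp2, which bind retinoic acid in the cytoplasm, had 42.7, 2474, 2111 and 2109 and 62.4, 1624, 1124 and 1353. Aldh1a1, a retinal dehydrogenase, had 64.5, 466, 590 and 392, and Dhrs3, a retinal reductase, 91.5, 269, 442 and 360. Of the nuclear receptors Rara had 106.8, 104.3, 112.3 and 107.8, Rarg had 1228, 1046, 1176 and 1052, and Rarb was below the mark at 19.6 to 33.9. Cdx1, Cdx2 and Cdx4, which activate trunk Hox genes in the embryo, were below the mark at 12.1 to 36.0. Of 7 measured genes in that list 3 were bright, and 0 of these were 2-fold apart at all times, with a median of -0.997. Gmnn, which encodes geminin, had 538, 304, 230.2 and 279, and Nr6a1, a nuclear receptor gene, had 121.5, 55.8, 71.0 and 50.8, so each was past 2-fold lower at some times. Nr6a1 was below the mark at 6 and 24 h, so its 0 h value helped it to count as bright, which bears on the median. Gdf11, the other bright gene, had 158.8, 136.2, 136.1 and 139.8, a mean difference of -0.21.

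**Figure D4:**
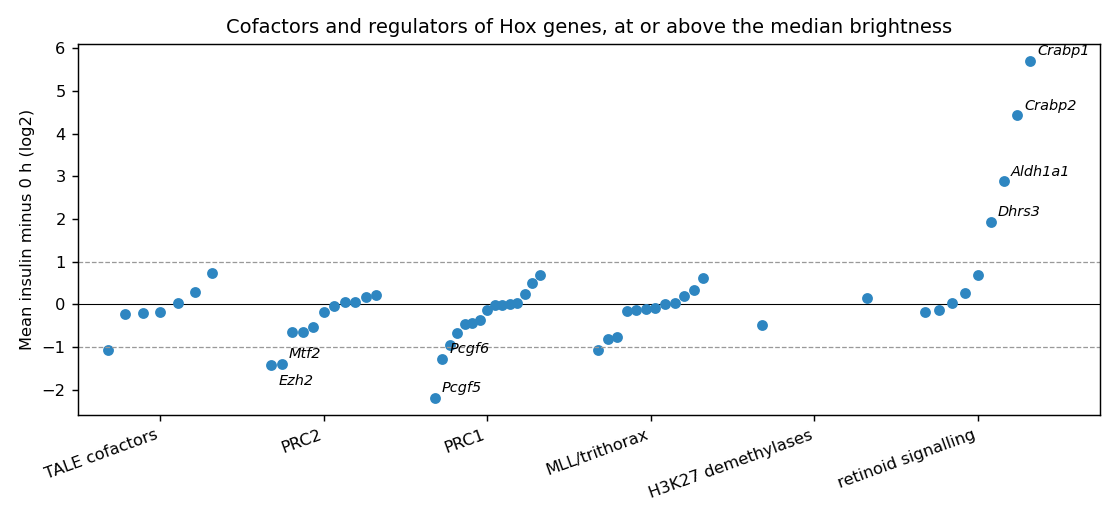
Mean log2 difference, insulin arrays minus the 0 h array, for bright genes of 6 lists of Hox cofactors and regulators, each point 1 gene. Dashed lines mark 2-fold and names mark genes past it at all 3 times, such as Pcgf5 at -2.19 and Crabp1 at 5.70.

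Other transcription factors tied to body regions were listed as well. Of 17 measured, 9 were bright, 5 were higher (10.0% of bright genes) and 1 was lower (4.00%) at all 3 times. Of the 17, 4 reached the mark at 0 h and 8 on each insulin array, so genes high with insulin could pass it through those arrays. Without the mark, the same 5 of 17 were higher, beside 6.78% of all genes. Shox2, a limb skeleton gene, had 2341, 274, 238 and 238, while Dlx5 had 39.4, 342, 419 and 412, Six2 had 138, 580.1, 654 and 633, and Zic1 had 15.04, 1659, 1415 and 1415. The limb-type genes Tbx4 and Pitx1 were below the mark on every array, and Tbx5 had 65.6, 71.7, 63.6 and 71.2.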

How the data were processed

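RNA of mouse osteoblast cultures was hybridised to Affymetrix arrays after 3′ in vitro transcription chemistry, as the labels' protocols state. The deposited intensities, 1 for each probe set on each array, were linear and ran from 7.34 to 31292, and the submitters' processing notes name RMA, which corrects background, normalizes arrays and summarises probes. The version of that step is not given in these sources. Because RMA compresses differences near background, the precision for dim genes is limited by signal over background.

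Here log2 was taken of the intensities. Of 45101 rows 64 were controls. By the platform annotation 34945 probe sets had 1 symbol, 932 had several and 9160 had none here. A gene's value was that of its brightest probe set by the 4-array mean, with no brightness filter. Hox genes had 48 such probe sets, 11 genes had several, and 3 further probe sets annotated to several Hox genes were left out. A RefSeq table of GRCm38.p6 gave chromosomes and gene order, and its promoter table gave sequences. Differences from 0 h of at least 2-fold were counted beside the same count over all genes. No test between groups is possible with 1 array each. Genes named in full were the bright Hox genes, and of the lists up to 4 bright genes at least 2-fold apart at all 3 times. Other list members and flanking genes named were chosen after their values were seen. The members and lists were chosen with earlier results of these data known.

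The counting step was tested on simulated data for 18193 genes, with noise taken from the 24 h minus 12 h differences. All 50 genes made 4-fold higher and 50 made 4-fold lower were recovered at all 3 times, and 0 of 100 changed 1.2-fold and 0 of 17993 unchanged genes were called. The simulation checks the counting only. Its noise leaves out what sets the 0 h array apart, so it gives no error rate for comparisons with 0 h. Python 3.11.15, numpy 2.4.6, pandas 2.3.3 and matplotlib 3.10.9 were used. Alternatives covered the probe set rule, normalization, a floor, fold and brightness thresholds and the reference array.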

Additional observations from a re-analysis of the deposited data

How the results depend on the processing

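No paired analysis was possible because every group holds 1 array, all numbered 1. Counts of Hox genes at least 2-fold from 0 h stayed within 1.5 times of those reported with suffixed probe sets left out, median centring, quantile normalization, a floor at the 25th percentile, or bright genes only. With probe sets of a gene averaged, the count higher at 12 h was 0 in place of 1. At 1.5-fold, 7, 7 and 6 were lower and 2, 1 and 1 higher at 6, 12 and 24 h, with 5 lower and 1 higher at all 3 times. At 3-fold, 1 was lower at each time and at all 3, and 0 were higher. The share of all genes was not counted at 1.5-fold or 3-fold, so these counts cannot be set against it. With the 6, 12 or 24 h array as the reference, 0 Hox genes were 2-fold lower or higher on any other insulin array, and 0 were on all 3 other arrays. By construction the 0 h array then enters the mean difference, which became positive for Hoxa7 (0.51, 0.65 and 0.63) and Hoxd8 (0.44, 0.34 and 0.66). The count of bright Hox genes was 22 at the 25th percentile and 2 at the 75th, in place of 12.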
